A study of Mus musculus with 10 samples.

Results

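The 10 genes described here are the ligand Fgf4, the receptors Fgfr1 and Fgfr2, the transcription factors Etv4, Etv5 and Egr1, and the pathway inhibitors Spry1, Spry2, Spry4 and Dusp6. They were chosen by symbol as members of the FGF-ERK pathway and its feedback, out of 54752 genes in the files, and all 10 were among the 12752 genes with enough counts to be tested. The study followed fibroblasts on their way to induced pluripotent stem cells, and RNA was taken on 5 days (D0, D1, D3, D5 and D7), with 2 libraries per day numbered replicate 1 and 2.

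The cells were primary fibroblasts of E13.5 mouse embryos at passage 2. Their fathers carried an Oct4-GFP transgene on a CBA/CaJ × C57BL/6J background and their mothers were 129S4/SvJaeJ. Before D0 the cells had spent 48 hours with retroviruses for 4 transcription factors, Jdp2, Sall4, Esrrb and Glis1, so every group, D0 included, carried all 4 viruses and an uninfected group is not analysed here. The groups are labelled by the time spent in a medium named iCD3, which was 0, 24, 72, 120 or 168 hours. That time goes together with the time since infection and in culture, and the design cannot tell these apart. No source used here gives the composition of iCD3, so whether it holds an FGF, serum or a kinase inhibitor is unknown. The series text speaks of 2 independent experiments, and no label ties a library to a culture or an experiment; the p-values therefore weigh differences against the spread between libraries of the same day, part of which may be technical.

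Fibroblast growth factors bind receptor tyrosine kinases of the FGFR family together with heparan sulfate, and the receptors signal through Ras, Raf, MEK and ERK kinases. Active ERK raises transcription of Egr1 within minutes and of the ETS factors Etv4 and Etv5 somewhat later, along with the Sprouty proteins and the ERK phosphatase Dusp6, which damp the signal. Mouse pluripotent cells make Fgf4 themselves, and its signal through ERK is known for moving them out of the naive state. All values here are levels of RNA: neither phosphorylated ERK nor any protein was measured.

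Libraries of replicate 1 held 2176457 to 4335931 estimated counts and those of replicate 2 held 1329377 to 1492105. Per library total before scaling, 3 counts thus stood for 0.692 to 1.38 CPM (counts per 1e+06 counts) in replicate 1 and for 2.01 to 2.26 CPM in replicate 2. The CPM values of genes below are normalised between libraries, so this floor differs somewhat on their scale. Mean fragment length also differed: it was 136 to 159 bases for replicate 1 libraries but 199 to 204 for replicate 2. All 10 markers on the fibroblast list were detected on every day, and their summed level went from 4950 and 6004 TPM (an RSEM estimate of transcript share, corrected for length) at D0 to 592 and 739 at D7. The 8 markers on the pluripotent list went from 1.97 and 10.1 TPM to 2261 and 1888 TPM, with Tdgf1 and Dppa4 at 0 on D0 and D1. The 6 epithelial markers went from 49.8 and 95.6 TPM to 334 and 263 TPM, with Cldn6 and Esrp1 at 0 at D0. Over all libraries the macrophage list summed to 2.44 to 16.4 TPM and the trophoblast list to 7.94 to 21.2 TPM, while the endothelial list went from 8.19 and 8.79 TPM at D0 to 51.3 and 56.3 at D7 and the primitive endoderm list from 41.3 and 70.9 to 109 and 84.4. Most of the endothelial sum at D7 was Pecam1 (34.45 and 38.68 TPM), and the others on that list were at 7.91 TPM or less. In the primitive endoderm list Dab2 was at 30.85 and 59.61 TPM at D0 and 45.91 and 21.45 at D7, while each of the others was higher at D7. These sums are not read as the presence of a cell type. In these bulk libraries fewer cells of a type and less RNA per cell cannot be told apart, and the part of the changing cell identity in the results below was not tested.

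Between D0 and D7, 5 of the 10 genes were called changed at an adjusted p under 0.05 (edgeR's quasi-likelihood test, Benjamini-Hochberg over all genes tested): Fgf4 and Etv5 rose, while Fgfr2, Spry1 and Egr1 fell. Of all genes tested, 17.9% were called in that comparison, 9.15% higher and 8.71% lower. The median log2 change was -0.25 over the 10 genes and 0.06 over all genes. In the test for a change on any day, 7 of the 10 were called, against 19.1% of all genes, and Spry2 and Spry4 were called there in addition. With limma on log2 TPM the any-day calls of Spry2 and Spry4 were lost (adjusted p = 0.0538 and 0.129). Spry1, Spry2, Spry4 and Egr1 were not called on any day without D0 replicate 1 or D0 replicate 2. The Spry2 call was also lost without D3 replicate 1 or D7 replicate 1, and that of Egr1 without D1 replicate 2 or D3 replicate 1. That of Spry4 was also lost without D3 replicate 2 or any library of D1 or D7. Each of these omissions leaves 1 library on a day, and fewer of all genes were called then too. Fgfr1, Etv4 and Dusp6 were not called in that test (adjusted p = 0.399, 0.228 and 0.061), whereas with the replicate number as a block 9 of the 10, all but Etv4, were called, against 34.9% of all genes.

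**Figure D1:**
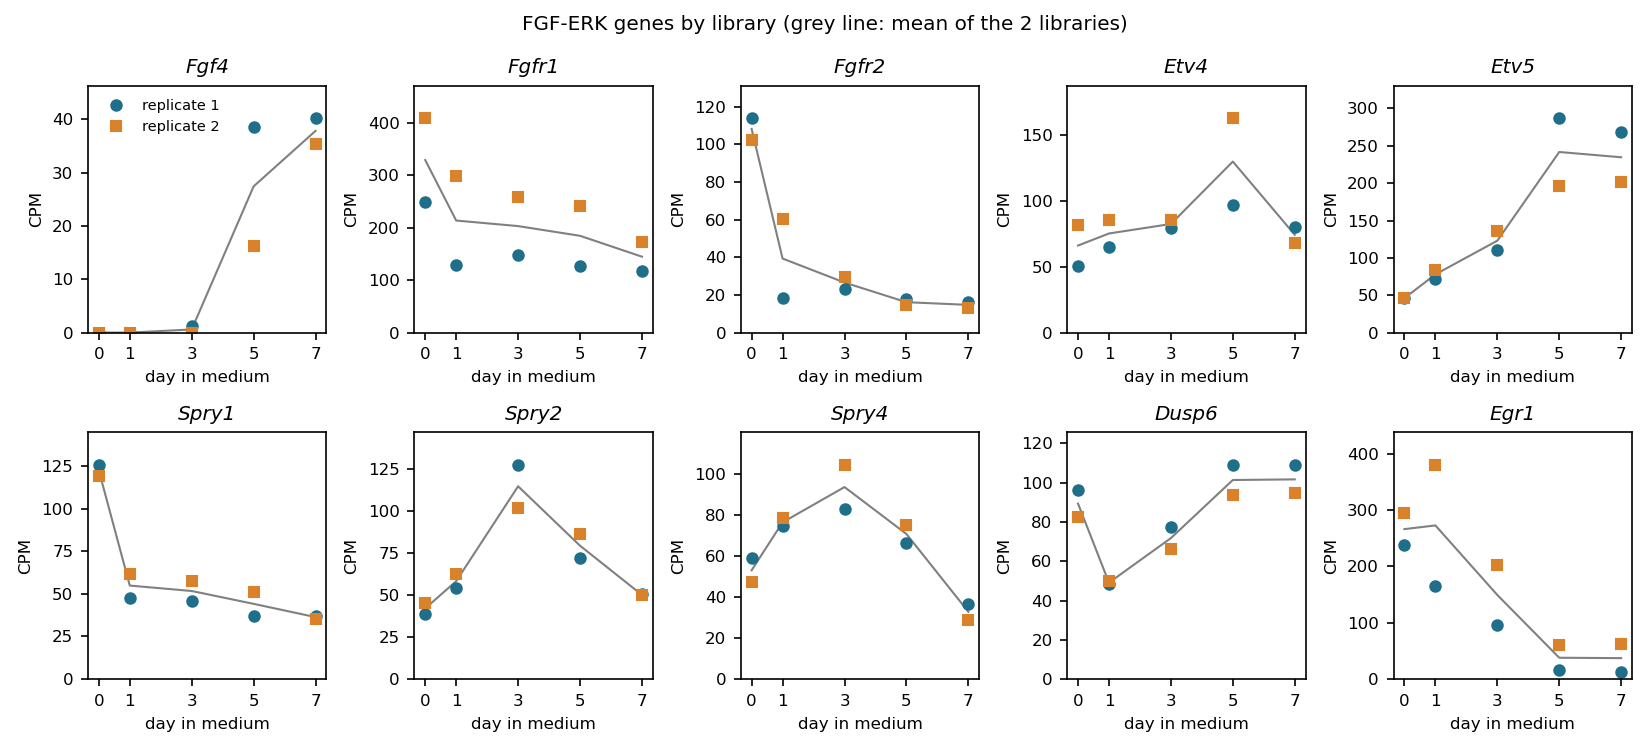
Normalised level (CPM, linear axis from 0) of each of the 10 genes in each library against the day in iCD3 medium, with replicates 1 and 2 as separate marks and the line through the day means. Fgf4 was at 0 in all 4 libraries of D0 and D1 and at 16.2 to 40.2 CPM in the 4 libraries of D5 and D7, while Spry1 was at 119 CPM or more in both D0 libraries and at 61.9 CPM or less in every later library.

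Fgf4 encodes the FGF that pluripotent cells secrete. Its gene (ENSMUSG00000050917) lies on the plus strand of chromosome 7 at 144847367 to 144865243 of GRCm38, the assembly also called mm10. The 250 bases before its RefSeq start site, chr7:144861136-144861385, are shown because Fgf4 is the gene of the group that went from no reads to a clear level. Capitals mark the GC box GGGCGG, the letters bound by Sp1-type factors, which begin 188 and 214 bases before the start.
Fgf4: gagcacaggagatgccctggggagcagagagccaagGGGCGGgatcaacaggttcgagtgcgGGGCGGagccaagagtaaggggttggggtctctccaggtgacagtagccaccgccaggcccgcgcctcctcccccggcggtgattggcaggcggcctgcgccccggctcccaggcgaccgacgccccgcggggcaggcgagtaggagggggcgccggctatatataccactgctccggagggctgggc

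Fgf4 had no counts in any of the 4 libraries of D0 and D1. At D3 it had 4 counts in replicate 1 (1.17 CPM) and 0 in replicate 2, at D5 160 and 21 counts (38.7 and 16.2 CPM), and at D7 185 and 54 counts (40.2 and 35.5 CPM). The D5 and D7 libraries lay well above every earlier one, and the D5 replicates differed more than the D7 replicates did. Set against a floor of 3 counts over the D0 libraries, D7 was at least 44-fold higher than D0 (adjusted p = 0.0014), and that call was kept without each of the 10 libraries in turn. Fgf4 passed the low-count filter only through its D5 and D7 libraries. Its calls, and its place in the counts of called genes, therefore rest on a selection by the same rise. It was also called from D0 to D7 when that filter was left out. From D3 to D7 the fitted log2 change was 5.49 (SE 0.79, adjusted p = 0.0132), a value that rests on the 4 counts at D3. That call was lost without D3 replicate 1 (adjusted p = 0.0607), D3 replicate 2 (0.107) or D7 replicate 1 (0.105). The step from D3 to D5 was 5.06 (SE 0.79) and was not called (adjusted p = 0.0829; blocked by replicate number, 0.00408).

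Fgfr1, the main FGF receptor of mesenchymal cells, had the highest level per length among Fgfr1 to Fgfr4 in every library. It made up 61.4% and 71.4% of their summed TPM at D0, 82.1% and 81.2% at D3 and 71.8% and 71.1% at D7. Fgfr1 (ENSMUSG00000031565, chromosome 8, 25513654 to 25575718, plus strand) was at 249.5 and 409.4 CPM at D0, 129 and 299 at D1, 148 and 259 at D3, 128 and 242 at D5, and 118 and 172 at D7. Replicate 2 was higher than replicate 1 on every day, and both D7 libraries lay below both D0 libraries. The log2 change from D0 to D7 was -1.19 (SE 0.48) and was not called (adjusted p = 0.118). With the replicate number as a block Fgfr1 was called lower (adjusted p = 0.00236), which made 6 of the 10 genes called against 28.5% of all genes, and the change within replicates 1 and 2 was -1.08 and -1.25. An exon of Fgfr1 overlaps Gm16159 on the other strand, and no source used here says if counting was strand-specific, so reads of the pair may be mixed.

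Fgfr2 gives the receptor forms that epithelia and mesenchyme use for different FGF ligands; the gene-level counts hold all its splice forms together. Fgfr2 (ENSMUSG00000030849, chromosome 7, 130162451 to 133123350, minus strand) was at 114 and 103 CPM at D0, 18.3 and 60.5 at D1, 23.4 and 29.8 at D3, 17.6 and 14.7 at D5, and 16.3 and 13.1 at D7. Every library after D0 was below both D0 libraries, and at D1 replicate 1 was already near its D7 level while replicate 2 was not. Fgfr2 fell by 2.85 on the log2 scale from D0 to D7 (SE 0.49, adjusted p = 0.0029) and was called without each library in turn. At D1 the log2 change was -1.50 (SE 0.46), with -2.59 in replicate 1 and -0.75 in replicate 2, and was not called (adjusted p = 0.104; blocked by replicate number, 0.0257). The annotated span of Fgfr2 overlaps Ctbp2 on the same strand, so reads that both gene models share were divided by estimation. The other receptors were low, with Fgfr3 at 1.1 to 8.69 TPM and Fgfr4 at 0 to 3.13 TPM.

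**Figure D2:**
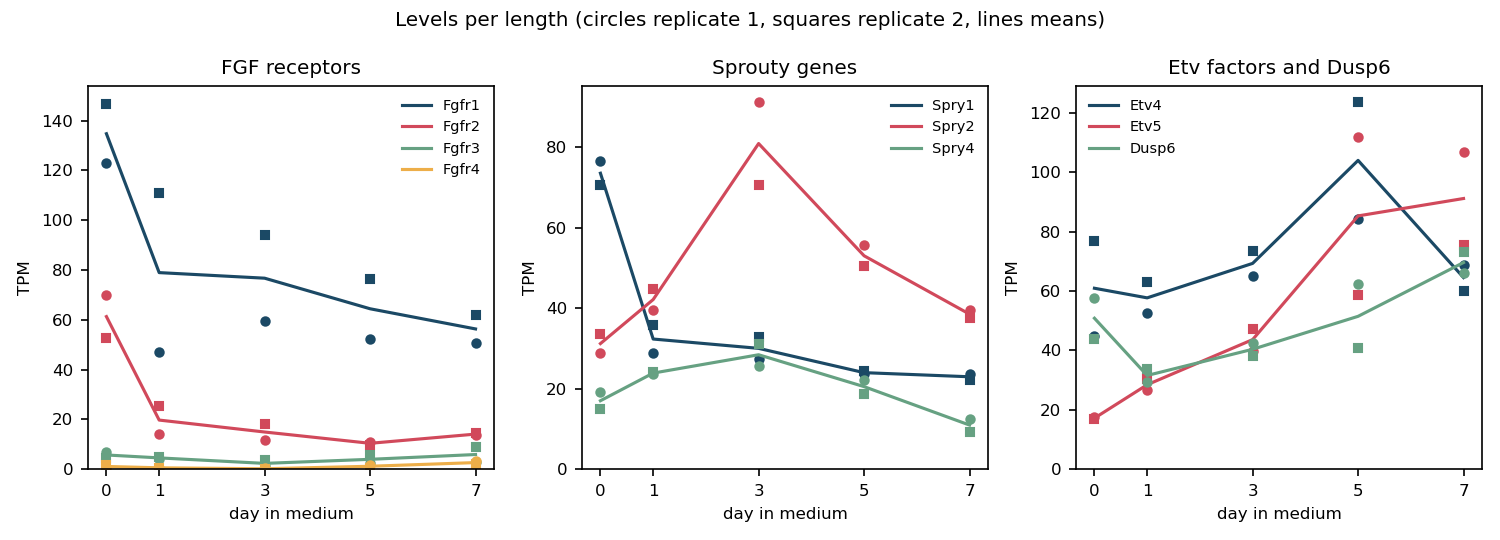
Level per transcript length (deposited TPM, linear axis from 0) in each library by day, with 1 panel for Fgfr1 to Fgfr4, 1 for the Sprouty genes and 1 for Etv4, Etv5 and Dusp6. Fgfr1 is above the other receptors in every library, and the Sprouty gene with the highest mean changes from Spry1 at D0 (73.5 TPM) to Spry2 at D3 (80.9 TPM) and D7 (38.5 TPM).

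Etv5 and Etv4 are close relatives of the PEA3 group of ETS factors, transcription factors that FGF signals induce in many embryonic tissues. Etv5 (ENSMUSG00000013089, chromosome 16, 22381309 to 22439719, minus strand) was at 46.5 and 45.7 CPM at D0, 71.8 and 83.9 at D1, 110 and 136 at D3, 287 and 196 at D5, and 268 and 201 at D7. On each day up to D5 both libraries were above both libraries of the day before, and D5 and D7 overlapped. Etv5 rose by 2.35 on the log2 scale from D0 to D7 (SE 0.31, adjusted p = 0.0007), was called without each library in turn, and changed by 2.51 and 2.12 within replicates 1 and 2. The single steps were smaller and none was called: 0.75 at D1 (SE 0.31, adjusted p = 0.229), 0.66 at D3 (adjusted p = 0.58) and 0.98 at D5 (SE 0.29, adjusted p = 0.229). From D3 to D7 the change was 0.94 (SE 0.29) and was not called (adjusted p = 0.0858), but was called once replicate number was a block (0.0249) and without D5 replicate 1 (0.0367) or D5 replicate 2 (0.0393).

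Etv4 (ENSMUSG00000017724, chromosome 11, 101769742 to 101785371, minus strand) was at 50.9 and 81.6 CPM at D0, 65.4 and 85.4 at D1, 79.6 and 85.7 at D3, 97.1 and 163 at D5, and 80.5 and 68.3 at D7. The D0 and D7 libraries overlapped, and the replicates moved in opposite directions between those days, by 0.65 and -0.25 on the log2 scale. Etv4 was not called from D0 to D7 (log2 change 0.18, SE 0.34, adjusted p = 0.772) or in any other comparison of days. Whether the changes of Etv5 and Etv4 differ from each other was not tested.

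The Sprouty genes encode inhibitors that act between the receptor and Raf, and they did not follow a common course. Spry1 fell at the first step, while Spry2 and Spry4 had their highest levels at D3 and fell from there to D7. Spry1 (ENSMUSG00000037211, chromosome 3, 37639947 to 37644598, plus strand) and Spry2 (ENSMUSG00000022114, chromosome 14, 105891947 to 105896819, minus strand) had different levels over the first days, so the 250 bases before each RefSeq start are shown side by side. They are chr3:37639697-37639946 on the plus strand for Spry1 and chr14:105896820-105897069 on the minus strand for Spry2. Capitals again mark GGGCGG, which is 60 bases before the start of Spry1 and is not in the Spry2 window. The Spry1 window overlaps an exon of Gm42922.
Spry1: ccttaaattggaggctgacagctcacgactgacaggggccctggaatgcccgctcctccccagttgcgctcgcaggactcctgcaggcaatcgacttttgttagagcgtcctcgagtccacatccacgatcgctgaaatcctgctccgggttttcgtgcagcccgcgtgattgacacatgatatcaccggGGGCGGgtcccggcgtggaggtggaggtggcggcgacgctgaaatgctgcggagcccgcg
Spry2: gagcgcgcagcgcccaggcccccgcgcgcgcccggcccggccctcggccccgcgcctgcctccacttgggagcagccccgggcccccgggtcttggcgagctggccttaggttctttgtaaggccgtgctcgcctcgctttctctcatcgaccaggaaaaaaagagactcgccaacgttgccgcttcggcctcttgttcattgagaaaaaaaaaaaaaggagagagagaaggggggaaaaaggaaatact

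RefSeq upstream windows on GRCm38.p6 were found for 6 of the 10 genes, 7 windows in all, since Etv5 had 2. Fgfr1 and Etv4 had none. Windows on chromosome 18 were left out of the search, so Spry4 and Egr1 were not looked up. These windows were searched on both strands for 4 motifs: the longer ETS form CCGGAA, the AP-1 site TGANTCA, the Esrrb half-site AAGGTCA and the GC box GGGCGG. The shorter ETS core GGAA was not searched for, and it does occur in both the Spry1 and the Spry2 window shown. Of these 4 only the GC box was found, in the windows of Fgf4, Spry1 and 1 of the 2 of Etv5. That Etv5 window overlaps an annotated exon of Etv5 itself. Among 32851 upstream windows of the same length, 12.0% held the ETS form CCGGAA, 6.75% the AP-1 site, 4.08% the Esrrb half-site and 32.7% the GC box. A match describes the letters of the window and is not a measured binding site.

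Spry1 was at 126 and 119 CPM at D0, 47.8 and 61.9 at D1, 45.9 and 57.4 at D3, 37.2 and 51.0 at D5, and 37.2 and 35.5 at D7. All 8 later libraries were below both D0 libraries, with most of the fall between D0 and D1. Spry1 fell by 1.75 on the log2 scale from D0 to D7 (SE 0.30, adjusted p = 0.0028), and the call was kept without each library. From D0 to D1, the comparison with 4.52% of all genes called (2.41% higher, 2.12% lower), Spry1 was the 1 gene of the 10 called: it fell by 1.17 (SE 0.29, adjusted p = 0.0479), or by 1.38 and 0.93 within replicates 1 and 2. That call lies close to the threshold and was lost without any single one of the 8 libraries of D0, D1, D3 and D7 (adjusted p = 0.0641 to 0.339). With the replicate number as a block 3 of the 10 were called lower at D1, Spry1, Fgfr2 and Dusp6, against 10.6% of all genes. The Spry1 exons overlap those of Gm42922 on the other strand.

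Spry2 was at 38.7 and 45.7 CPM at D0, 54.2 and 62.6 at D1, 128 and 102 at D3, 72.5 and 86.6 at D5, and 50.5 and 49.9 at D7. Both D3 libraries were above the libraries of all other days, and the D7 libraries lay only slightly above those of D0. Spry2 fell by 1.20 on the log2 scale from D3 to D7 (SE 0.27, adjusted p = 0.0342), a comparison in which 3 of the 10 genes and 5.37% of all genes were called (3.07% higher, 2.31% lower). All 3 calls were lost without D3 replicate 1, D3 replicate 2 or D7 replicate 1. Those of Spry2 and Spry4 were also lost without D7 replicate 2. Each of these omissions leaves 1 library on a day, and far fewer of all genes were called then too. The Spry2 call was lost without any single one of the 8 libraries of D0, D1, D3 and D7, and with log2 TPM (adjusted p = 0.0806). The rise from D1 to D3, 0.99 (SE 0.27), was not called (adjusted p = 0.27), nor was the change from D0 to D7, 0.26 (SE 0.28, adjusted p = 0.587).

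Spry4 (ENSMUSG00000024427, chromosome 18, 38586247 to 38601415, minus strand) was at 58.7 and 47.1 CPM at D0, 74.3 and 78.3 at D1, 82.5 and 104 at D3, 66.2 and 75.0 at D5, and 36.6 and 28.9 at D7. The D7 libraries were the lowest of the course and the D3 libraries the highest. Spry4 fell by 1.49 on the log2 scale from D3 to D7 (SE 0.29, adjusted p = 0.0205), by 1.16 and 1.82 within replicates 1 and 2. The call was lost without D3 replicate 1 (adjusted p = 0.0607), D3 replicate 2 (0.148), D7 replicate 1 (0.134) or D7 replicate 2 (0.124), and with log2 TPM (0.0733). Spry4 was not called from D0 to D7 (log2 change -0.68, SE 0.29, adjusted p = 0.132) or from D5 to D7 (-1.09, SE 0.29, adjusted p = 0.565).

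Dusp6 is a cytoplasmic phosphatase that inactivates ERK and is often used as a readout of ERK activity. Dusp6 (ENSMUSG00000019960, chromosome 10, 99263231 to 99267489, plus strand) was at 96.4 and 82.3 CPM at D0, 48.4 and 49.8 at D1, 77.3 and 66.3 at D3, 109 and 93.6 at D5, and 109 and 94.6 at D7. The D1 libraries were the lowest of the course, and the D7 libraries overlapped those of D0. The change at D1 was -0.87 on the log2 scale (SE 0.27), or -0.98 and -0.72 within replicates 1 and 2, and was not called (adjusted p = 0.103; blocked by replicate number, 0.0278). From D0 to D7 the change was 0.19 (SE 0.26, adjusted p = 0.679).

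Egr1 is a zinc finger factor of the immediate-early class, transcribed within minutes of many stimuli that activate ERK. Egr1 (ENSMUSG00000038418, chromosome 18, 34859823 to 34864984, plus strand) was at 238 and 294 CPM at D0, 165 and 381 at D1, 96 and 203 at D3, 15.5 and 60.3 at D5, and 12.6 and 61.8 at D7. Replicate 2 was higher than replicate 1 on every day, and all 4 libraries of D5 and D7 were below all earlier ones. Egr1 fell by 2.91 on the log2 scale from D0 to D7 (SE 0.79, adjusted p = 0.0275), by 4.15 in replicate 1 and by 2.24 in replicate 2. The call was lost without D0 replicate 1 (adjusted p = 0.0788), D0 replicate 2 (0.106) or D7 replicate 1 (0.164), with log2 changes from -4.35 to -2.10 over all 10 omissions. The step from D3 to D5 was -2.04 (SE 0.78, adjusted p = 0.343) and the change from D3 to D7 was -2.06 (SE 0.77, adjusted p = 0.14). Both were called once replicate number was a block (adjusted p = 0.0135 and 0.00288). The gap between the replicates of Egr1 and Fgfr1 goes with the replicate number, as do depth and fragment length, and their part in it was not tested.

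**Figure D3:**
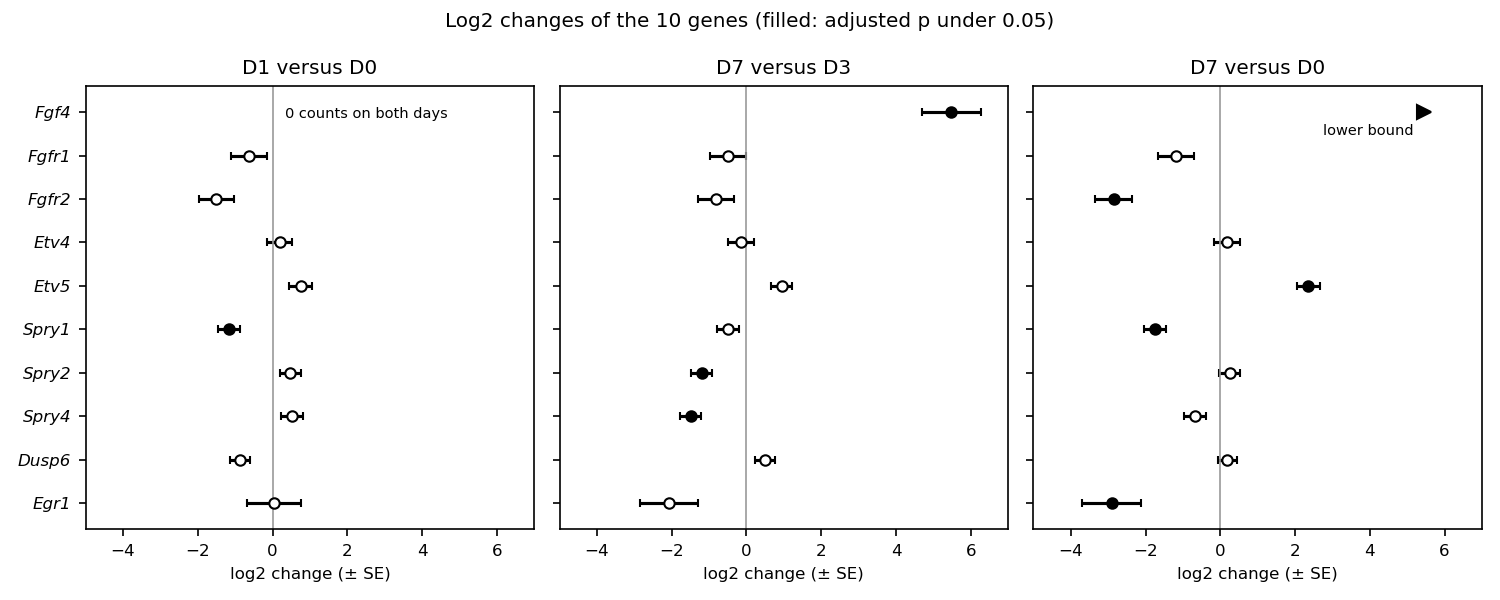
Log2 change of each of the 10 genes from D0 to D1, from D3 to D7 and from D0 to D7, with bars of 1 SE; filled marks have an adjusted p under 0.05 and the triangle is the lower bound for Fgf4. From D0 to D7, Fgf4 and Etv5 (2.35) are filled above 0 and Fgfr2 (-2.85), Egr1 (-2.91) and Spry1 (-1.75) are filled below 0.

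Between neighbouring days after D1 the test called few genes of any kind. None of the 10 was called from D1 to D3 (0.0549% of all genes called), from D3 to D5 (0.0706%) or from D5 to D7 (0% of genes). At an unadjusted p under 0.05 in edgeR there were 2 of the 10 (Etv5 and Spry2), 3 (Etv5, Egr1 and Fgf4) and 3 (Etv4, Spry2 and Spry4) in these steps, against 8.49%, 11.8% and 6.35% of all genes, and DESeq2 called 0, 1 and 0 of the 10 (1%, 1.18% and 0.204% of all genes). With the replicate number as a block 0, 2 and 0 were called, against 1.62%, 3.3% and 0.157% of all genes; the 2 were Fgf4 and Egr1. From D3 to D7 the block gave 5 of the 10, Fgf4, Etv5, Spry2, Spry4 and Egr1, against 18.4% of all genes.

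Per transcript length, the order of the 10 genes changed over the course. At D0 the mean levels were 135 TPM for Fgfr1, 117 for Egr1, 73.5 for Spry1, 61.3 for Fgfr2, 60.9 for Etv4, 50.8 for Dusp6, 31.2 for Spry2, 17.1 for Etv5, 17.0 for Spry4 and 0 for Fgf4. Among neighbours in that order, the libraries of Fgfr2 and Etv4, of Etv4 and Dusp6, and of Etv5 and Spry4 overlapped. At D7 they were 91.1 TPM for Etv5, 69.6 for Dusp6, 64.5 for Etv4, 56.3 for Fgfr1, 38.5 for Spry2, 22.9 for Spry1, 19.5 for Fgf4, 16.5 for Egr1, 14.1 for Fgfr2 and 10.9 for Spry4. The overlapping neighbours at D7 were Dusp6 and Etv4, Etv4 and Fgfr1, Fgf4 and Egr1, and Egr1 and Fgfr2. Etv5 thus stood eighth at D0 and first at D7, and Egr1 went from second to eighth place.

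The genes whose log2 CPM ran most like that of 5 of the 10 genes were listed by Pearson r over the 10 libraries. These are descriptions over points that share 5 days and a depth per replicate. For Fgf4 they were Hsd17b14 (r = 0.996), Dppa5a (0.995) and Triml1 (0.995); Dppa5a is also on the pluripotent marker list. For Egr1 they were Pitpnm1 (0.98), Ptprm (0.979) and BC034090 (0.978), and for Fgfr1 they were Atn1 (0.967), Flii (0.967) and Bcar1 (0.956). For Dusp6 they were Narf (0.963), Pak1 (0.961) and Apool (0.923), and for Etv4 they were Tmc6 (0.918), Dnttip1 (0.916) and Ddx39b (0.913).

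The remaining genes of the pathway were followed in lists by role. Of 21 other ligand genes only 5 were tested, and in the D0 to D7 comparison 2 of them were called higher and 3 lower (17.9% of all genes were called); a ligand that was silent on most days passed the filter only through the days on which it was present. Fgf7, a ligand that mesenchyme sends to epithelia, went from 15.8 ± 3.27 CPM at D0 to 0.655 ± 0.00318 at D7 (SD, n = 2), a log2 change of -4.49 (SE 1.12, adjusted p = 0.0211). Fgf18 went from 20 ± 3.42 to 4.15 ± 0.289 CPM (adjusted p = 0.0161) and Fgf1 from 28.4 ± 8.34 to 6.65 ± 2.90 CPM (adjusted p = 0.00811). Fgf17 and Fgf8 are relatives of each other known from the early embryo. Fgf17 was at 0.489 ± 0.692 CPM at D0, 46.9 ± 2.00 at D3, 36.4 ± 22.8 at D5 and 6.55 ± 0.894 at D7. Fgf8 had no counts up to D3 and was at 7.47 ± 0.716 CPM at D5 and 3.6 ± 1.41 CPM at D7. From D0 to D7 the Fgf17 ratio was 11.6 (95% counting interval 3.02 to 98.9, adjusted p = 0.0311) and Fgf8 was at least 3.5-fold higher (adjusted p = 0.0484). The Fgf8 call was lost without each of the 10 libraries, those of Fgf7, Fgf18 and Fgf17 without any single one of the 4 libraries of D0 and D7, and that of Fgf1 without D0 replicate 1 or D7 replicate 2 (adjusted p = 0.0523 to 0.214 over these). Fgf1 was the least changed of the 5 by fitted value and was named after its values were seen.

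Heparan sulfate proteoglycans and the enzymes that build their chains let FGF ligands reach the receptors. They make up most of the list of co-receptors, which also holds the cadherin Cdh2 and the secreted FGF-binding protein Fgfbp1. All 16 genes on the list were tested. From D0 to D7, 6 of them fell and none rose, beside 8.71% of all genes called lower, with a median log2 change of -0.72 against 0.06 over all genes. Fewer of the 16 were called without any single one of the 8 libraries of D0, D1, D3 and D7. Each of these omissions leaves 1 library on a day, and fewer of all genes were called then too. Without a D1 or D3 library the lost call was that of Sdc2. The Sdc2 call was also lost with DESeq2 (adjusted p = 0.0592), RLE size factors (0.0513), no low-count filter (0.0776) and log2 TPM (0.109). The syndecan Sdc3 went from 261 ± 111 to 17.8 ± 2.71 CPM (a log2 change of -3.89, SE 0.65, adjusted p = 0.00267) and the glypican Gpc4 from 237 ± 3.18 to 35.4 ± 9.43 CPM (-2.76, SE 0.32, adjusted p = 0.000411). The chain polymerase Ext1 went from 141 ± 33.2 to 41.6 ± 0.261 CPM (-1.76, SE 0.31, adjusted p = 0.00318), and these calls of Sdc3, Gpc4 and Ext1 were kept without each library. Sdc1 changed by -1.76 (adjusted p = 0.0214), a call lost without D0 replicate 1, D0 replicate 2 or D7 replicate 1 (adjusted p up to 0.182). Gpc4 was also the 1 co-receptor gene called at D1 (-1.29, SE 0.30, adjusted p = 0.0358), and that call was lost without any library of D0 or D1, D3 replicate 2 or D7 replicate 2 (adjusted p = 0.051 to 0.248). Of 5 further receptor genes only 2 were tested and neither was called.

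Of the 24 genes of the cascade from adaptor to kinase, all tested, 1 rose and 4 fell from D0 to D7, a share close to the 17.9% of all genes called, with a median log2 change of -0.09. All these calls were lost without D0 replicate 2, D7 replicate 1 or D7 replicate 2. All but that of Hras were lost without D0 replicate 1. Each of these omissions leaves 1 library on a day, and fewer of all genes were called then too. Gab1, a docking protein downstream of FGF receptors, went from 30.4 ± 2.72 to 78.4 ± 5.32 CPM (1.36, SE 0.31, adjusted p = 0.013). The Ras relative Mras changed by -2.09 (adjusted p = 0.0388), Hras by -1.34 (0.0247) and the phosphatase Ptpn11, which couples receptors to Ras, by -1.15 (0.00966). Each of these 4 calls was lost without at least 3 of the single libraries, always including D0 replicate 2 and both libraries of D7 (adjusted p = 0.0501 to 0.244 over the losses).

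Feedback genes other than the Sprouty genes and Dusp6 gave 1 rise and 3 falls from D0 to D7 among 16 tested of 18 listed, beside 17.9% of all genes called, with a median log2 change of -0.43. Fewer of them were called without D0 replicate 1, D0 replicate 2 or D7 replicate 1. Each of these omissions leaves 1 library on a day, and fewer of all genes were called then too. Dusp9, a cytoplasmic ERK phosphatase related to Dusp6, went from 30.6 ± 12.8 to 110 ± 22.3 CPM (1.86, SE 0.37, adjusted p = 0.00615, lost without D0 replicate 1 at 0.0689). Errfi1, an inhibitor of EGF receptor signalling, went from 234 ± 19.3 to 48.6 ± 12.1 CPM (-2.28, SE 0.33, adjusted p = 0.0012, kept without each library), and it was also called lower at D1 (-1.62, SE 0.32, adjusted p = 0.0174), a call lost without D0 replicate 1, D0 replicate 2 or D1 replicate 1 (0.091 to 0.192). The nuclear phosphatase Dusp1 changed by -2.38 (adjusted p = 0.0102), a call lost without D0 replicate 2 or D7 replicate 1 (adjusted p up to 0.0982). Flrt2, a membrane protein that binds FGF receptors, changed by -1.79 (adjusted p = 0.0155) and was lost without D0 replicate 1, D0 replicate 2 or D7 replicate 1 (up to 0.149).

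The list of targets holds genes that ERK signals induce and also factors through which ERK acts, such as Elk1, Elk3, Elk4 and Srf. Its counts are therefore not a measure of ERK output. Of 19 tested from 22 listed, 9 fell and 1 rose from D0 to D7, where 17.9% of all genes were called. The median log2 change was -1.59. The block gave 13 falls and 1 rise (28.5% of all genes called). Log2 TPM gave 7 falls and 0 rises, with 1811 of the 12752 genes called. All target calls but that of Ets1 were lost without D7 replicate 1. Those of Elk3, Etv1, Myc, Plaur and Srf were lost without D0 replicate 2. Each of these omissions leaves 1 library on a day, and fewer of all genes were called then too. Ets1, an ETS factor of mesenchymal and endothelial cells, went from 138 ± 22.3 to 17.2 ± 0.701 CPM (-3.0, SE 0.36, adjusted p = 0.000443, kept without each library). The AP-1 genes Fosl1 and Junb went from 35.1 ± 3.28 to 2.18 ± 0.628 CPM (-4.07, adjusted p = 0.0032) and from 592 ± 21.0 to 49.9 ± 27.9 CPM (-3.6, adjusted p = 0.00835), and both calls were lost without D7 replicate 1 (0.051 and 0.0869). Plaur, the urokinase receptor gene, changed by -3.96 (adjusted p = 0.0269) and was lost without D0 replicate 2, D7 replicate 1 or D7 replicate 2 (up to 0.142). The 1 target that rose was Etv1, the third factor of the PEA3 group beside Etv4 and Etv5, named after its value was seen. It went from 6.91 ± 1.30 to 30.8 ± 6.33 CPM (2.14, SE 0.54, adjusted p = 0.0195), and the call was lost without D0 replicate 1, D0 replicate 2 or D7 replicate 1 (up to 0.127). At D1 the called targets were Ets1 (-1.86, SE 0.34, adjusted p = 0.0119) and Hmga2 (-1.61, SE 0.38, adjusted p = 0.0359), both lower. The Ets1 call at D1 was lost without D0 replicate 1, D0 replicate 2 or D1 replicate 1 (adjusted p = 0.0562 to 0.14), and the Hmga2 call without these or any library of D3 or D7 (0.0516 to 0.268).

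**Figure D4:**
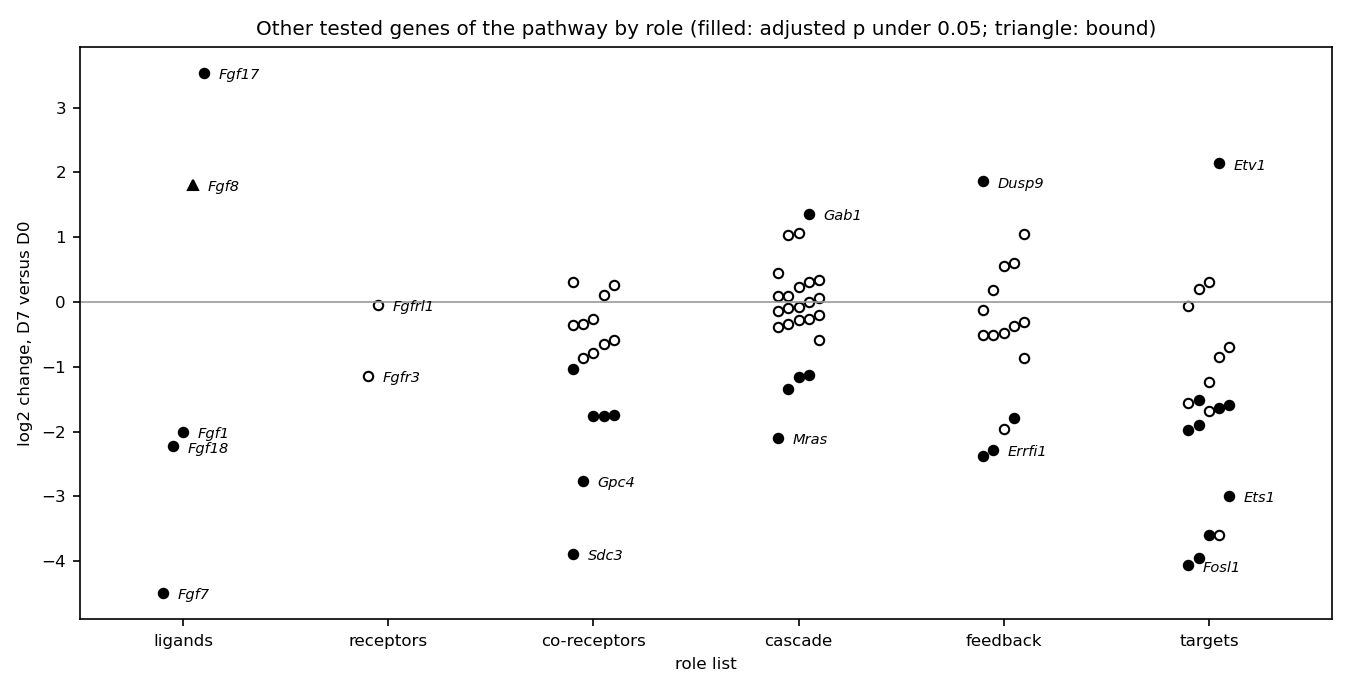
Log2 change from D0 to D7 of each other tested gene of the pathway (points), in columns by role; filled marks have an adjusted p under 0.05 and the triangle is the lower bound for Fgf8. In the target column 9 filled marks lie below 0 and only Etv1 (2.14) lies filled above it, while 19 of the 24 marks of the cascade are open.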

How the data were processed

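Messenger RNA libraries of 10 samples were sequenced on a NextSeq500; 2 library kits and 2 sequencing kits are named for every sample, per the labels' protocols, without saying which was used for which. The reads were processed with bcl2fastq, Bowtie2 and RSEM on mm10, per the submitters' processing notes; no source used here gives versions or the annotation. The deposited tables give RSEM's expected counts, which are estimates and not normalised, per the file headers. The deposited TPM values, scaled by RSEM for transcript length and library, were used for levels between genes and for 1 alternative. The deposited FPKM values were not used.

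Gene names came from GENCODE M21 on GRCm38, and 54723 of 54752 identifiers matched. Expected counts were rounded and tested with edgeR 4.0.16 (limma 3.58.1, R 4.3.3): genes kept by its filter with a minimum count of 10, TMM scaling, 1 term per day over all 10 libraries, quasi-likelihood F test, Benjamini-Hochberg adjustment over 12752 genes, called under 0.05. The test for any day took the 4 day terms together. CPM values are TMM-scaled. The SE was derived from the test, as |log2 change| over the root of its F value. A gene at 0 on a day took a floor of 3 counts pooled over that day's libraries; floors and counting intervals cover counting error only. Log2 changes within a replicate and r values used a prior count of 2. The test was run on simulated counts with the same dispersion for every gene and no replicate effect. That run does not give error rates for these data. Sequences are from RefSeq on GRCm38.p6.

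Deviations from the day means correlated at 0.273 to 0.436 across genes for same-numbered libraries in all 10 pairs of days. Depth and fragment length also go with the replicate number, so these correlations cannot tell shared cultures from library preparation. The fit as reported leaves the number out, and the block is given as an alternative. Both libraries of each day differed beyond counting noise (chi-square per gene 7.76 to 23.4), so each library was counted once. Alternatives were DESeq2 1.42.0, RLE size factors, no low-count filter, the replicate number as a block, limma on log2(TPM + 1), and leaving out each library; for pathway genes outside the 10 these were added after seeing the data.

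The 10 genes, the role lists and the marker lists were chosen with earlier results of these data known. All 10 genes were described. From each role list up to 4 called genes with the largest change from D0 to D7 were named, and for Fgf4, Fgfr1, Etv4, Dusp6 and Egr1 the 3 genes of highest r.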

Additional observations from a re-analysis of the deposited data

How the results depend on the processing

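No called value of the 10 genes (all comparisons) or of the other pathway genes (D0 to D1, D3 to D7 and D0 to D7) reversed under any alternative run. For the 10 genes, 853 values kept their side of the threshold, 30 lost a call and 17 gained one. Of the 853, 32 values, called neither in the result as reported nor under the alternative, changed sign or went to 0, among them Egr1 from D0 to D1 (0.03, or -0.66 without D1 replicate 2) and Etv4 from D0 to D7 (0.18, or -0.08 without D0 replicate 1). With 2 libraries per day and low depth in replicate 2, the steps between neighbouring days could show only large changes, and the cause of the moves below was not tested.

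With the replicate number as a block, in place of 577, 7, 9, 0, 685, 2278 and 2436 genes called (D0 to D1, D1 to D3, D3 to D5, D5 to D7, D3 to D7, D0 to D7 and any day), 1350, 206, 421, 20, 2351, 3629 and 4455 were called. Of the 10 genes the block called 3, 0, 2, 0, 5, 6 and 9 in place of 1, 0, 0, 0, 3, 5 and 7, adding Fgfr1 as lower from D0 to D7. DESeq2 called 128 genes from D1 to D3, 151 from D3 to D5 (1 of the 10, Fgf4) and 26 from D5 to D7. Without the low-count filter 1064, 272, 452, 176, 1664 and 4139 genes were called from D0 to D1, D1 to D3, D3 to D5, D5 to D7, D3 to D7 and on any day, with 2 of the 10 from D3 to D5 and, from D0 to D1, Fgfr2 in place of Spry1. With log2 TPM 17, 1 and 435 genes were called from D3 to D5, D5 to D7 and D3 to D7, with 0 of the 10 from D0 to D1 and 1 from D3 to D7; this scale moved the median change of all genes by 0.19 from D5 to D7 and by 0.11 from D3 to D7.

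Leaving out each library in turn gave 121 to 911, 0 to 45, 0 to 288, 0 to 227, 5 to 1532, 839 to 2988 and 1235 to 3514 genes in the same order of comparisons. Of the 10 genes it gave 0 to 1 called from D0 to D1, 0 from D1 to D3, 0 to 1 from D3 to D5, 0 from D5 to D7, 0 to 4 from D3 to D7, 4 to 5 from D0 to D7 and 3 to 8 on any day.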
